A study of Mus musculus with 6 samples.

Results

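The genes that make, destroy and read cyclic AMP (cAMP) were examined in the inguinal subcutaneous white adipose tissue (SC-WAT) of mice lacking *Egr1*. They were taken by symbol from the protein-coding genes and comprise the adenylyl cyclases, the phosphodiesterases that break down cAMP, the subunits of protein kinase A (PKA), the A-kinase anchoring proteins (AKAPs), the transcription factors *Creb1*, *Crem* and *Atf2*, and the salt-inducible kinases *Sik1*, *Sik2* and *Sik3*. Of the 47069 genes counted, 52 met this rule: 10 cyclases, 15 phosphodiesterases, 2 catalytic and 4 regulatory PKA subunits, 15 AKAPs, 3 transcription factors and 3 salt-inducible kinases. After removal of genes with too few counts, 48 of the 52 were tested. Both groups were 2-week-old female C57BL/6 mice (C57BL/6 J in the study's methods) born to heterozygous parents, 3 *Egr1* +/+ mice as controls and 3 *Egr1* -/- mice, which carry on both alleles a LacZ cassette inserted in the 5′ untranslated region of *Egr1* together with a frameshift. The mutation is constitutive, so the comparison is not restricted to fat cells. The 6 mice came from 4 litters, and 1 mouse of each genotype shared a litter.

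In fat cells, noradrenaline acting on beta adrenergic receptors engages the stimulatory G protein, which switches on adenylyl cyclase in the membrane. The cAMP formed binds the regulatory subunits of PKA and frees the catalytic subunits, which phosphorylate hormone-sensitive lipase and perilipin on the lipid droplet and CREB in the nucleus, while the inhibitory G proteins restrain cyclase and insulin lowers cAMP through PDE3B. In beige and brown adipocytes the same pathway drives lipolysis and *Ucp1* transcription. AKAPs hold PKA at particular places in the cell, and the salt-inducible kinases, which PKA inhibits, keep the CREB coactivators out of the nucleus.

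The libraries held 29661984 to 42357981 counts, of which 50.0% to 66.3% were mitochondrial. The 52 genes together received between 76920 and 112728 counts in each mouse. *Egr1* itself had 241 to 711 counts in the *Egr1* +/+ mice and 57 to 103 in the *Egr1* -/- mice, so the groups did not overlap. Levels are given as CPM, counts scaled to the size of the library after normalization by edgeR's TMM method, and a log2 fold change is always *Egr1* -/- relative to *Egr1* +/+. Levels of different genes were compared only as CPM per kilobase of exon. A difference was called at an adjusted p below 0.05 in edgeR's quasi-likelihood test, adjusted over all tested genes by the Benjamini-Hochberg method. *Egr1* itself was not called by this test (log2 fold change -2.19, adjusted p = 0.0878), while DESeq2 gave it an adjusted p of 3.59e-10. The lack of a call in edgeR is therefore not evidence that a gene is unchanged. A level in a whole fat pad mixes cell types, so fewer cells of a type and less RNA per cell cannot be told apart.

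The identity of the tissue was checked with marker genes of 11 cell types. The summed level of 6 white and general adipocyte markers was 5840 to 6240 CPM in the *Egr1* +/+ mice and 4560 to 5510 CPM in the *Egr1* -/- mice. These sums did not overlap, and the median log2 fold change of the list was -0.3. Most of each sum was *Fabp4* (log2 fold change -0.2, edgeR unadjusted p = 0.254). *Adipoq*, *Lep* and *Retn* were lower at an unadjusted p under 0.05, while none of the 6 was higher at that level. Only *Plin1* was on the higher side (log2 fold change 0.11). The 6 beige or brown adipocyte markers summed to 521 to 668 CPM against 919 to 1540 CPM, and all 6 were higher in the *Egr1* -/- mice at an unadjusted p under 0.05. The 6 stromal progenitor markers summed to 1390 to 1520 CPM against 792 to 1110 CPM, and all 6 were lower at that level. From these same mice the study had reported *Ucp1*, *Cidea*, *Dio2*, *Cox8b* and *Ppargc1a* as upregulated and *Dcn* and *Col1a1* as downregulated. The direction of these markers was thus known beforehand and is not an independent result. Skeletal muscle markers varied from mouse to mouse within both genotypes, from 217 to 3510 CPM in the *Egr1* +/+ mice and from 105 to 2830 CPM in the *Egr1* -/- mice, and none of these 10 had an unadjusted p under 0.05. No marker of any of the lists had an adjusted p below 0.05 in edgeR. DESeq2 called 17 of the 58 markers for which it gave an adjusted p, 6 higher and 11 lower, among them 5 of the 6 beige, 4 of the 6 stromal and 2 of the 6 white adipocyte markers.

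None of the 48 tested genes of the cAMP system passed the adjusted threshold, where 0.017% of all 17667 tested genes did. The unadjusted p was under 0.05 for 7 of the 48 (14.6%, background 10.7%). *Adcy4*, *Akap1*, *Pde4a*, *Pde4d*, *Prkaca* and *Prkar2b* were the 6 with a higher level in *Egr1* -/- mice (12.5%, background 5.06%), and *Akap12* was the 1 with a lower level (2.08%, background 5.6%). In 9 genes the 2 genotypes did not overlap (18.8%, background 16.3%). They are these 7 plus *Sik2* and *Akap11*. In all, 7 were higher in every *Egr1* -/- mouse (14.6%, background 8.15%) and 2, *Akap12* and *Akap11*, were lower in every *Egr1* -/- mouse (4.17%, background 8.1%). The number of genes is thus close to the background without overlap and somewhat above it by unadjusted p. DESeq2, the tool of the study, gave 1 call among the 41 members for which it returned an adjusted p (2.44%, background 2.89%), and this was *Akap12*, lower in *Egr1* -/- mice (background 1.88%), with no member called higher (background 1.01%).

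As a group the pathway genes differed little between the genotypes. The median log2 fold change was 0.03, with quartiles of -0.12 and 0.15, against a median of 0.0 and quartiles of -0.2 and 0.18 over all tested genes. The median size of the change, whatever its sign, was 0.134 against 0.192 for all tested genes. The genes compared were not matched for level, so these values do not show that the pathway is more stable than other genes. In 25 of 48 genes the fold change was above 0 (52.1%, background 50.1%). The balance was even in most roles: 5 of 9 tested cyclases, 8 of 15 phosphodiesterases, 1 of 2 catalytic subunits, 2 of 4 regulatory subunits, 6 of 12 AKAPs, 1 of 3 transcription factors and 2 of 3 salt-inducible kinases were on the higher side.

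**Figure D1:**
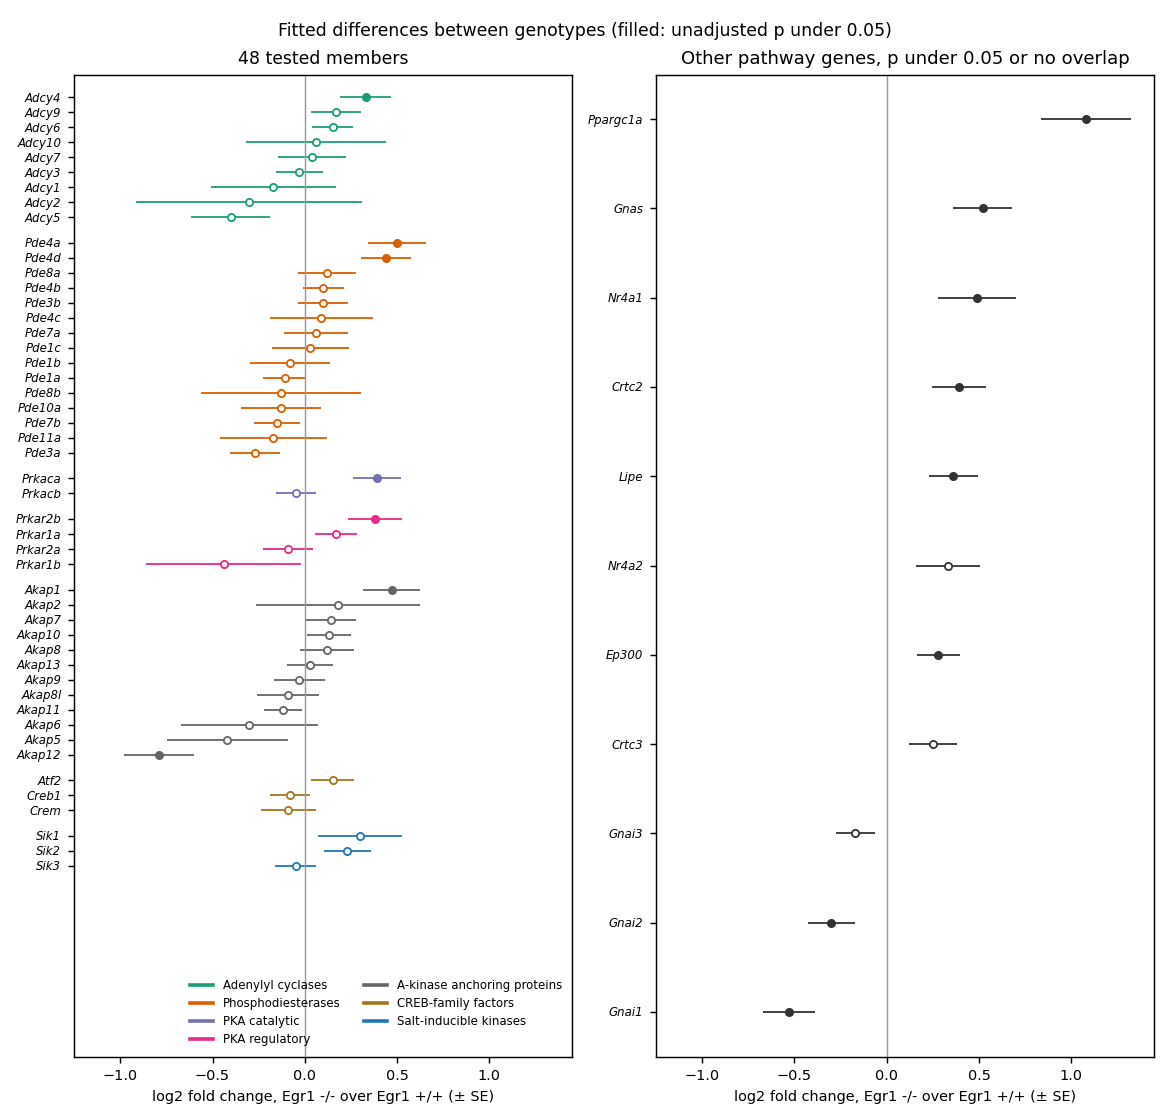
Log2 fold change of *Egr1* -/- against *Egr1* +/+ mice for each of the 48 tested members, ordered by role, and for the 11 other pathway genes with an unadjusted p under 0.05 or no overlap between genotypes, with bars of 1 SE from edgeR and filled points for an unadjusted p under 0.05. Members lie between -0.79 (*Akap12*) and 0.50 (*Pde4a*), and the other pathway genes drawn between -0.53 (*Gnai1*) and 1.08 (*Ppargc1a*).

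These directions depend on the reference used for scaling. When CPM were scaled by the total counts, mitochondrial genes included, the median of all tested genes moved from 0.001 to -0.147 and that of the members from 0.028 to -0.104. The members at an unadjusted p under 0.05 then numbered 3, all lower (*Akap12*, *Adcy5* and *Akap5*), in place of 6 higher and 1 lower. The members without overlap were 5, all lower, and only *Akap12* was among both these 5 and the 9 above. The 6 genes that were higher after TMM kept a positive fold change under total counts, of 0.18 to 0.35. With the mitochondrial genes left out before TMM, the 9 genes without overlap and the 7 at an unadjusted p under 0.05 were the same as with them. Levels below are after TMM.

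Promoter sequences were examined for the site that EGR1 recognizes and for the cAMP response element (CRE) that CREB recognizes. RefSeq promoter windows of GRCm38.p6 were found for 43 of the 52 genes, in 81 windows. The EGR motif, GCGTGGGCG or GCGGGGGCG on either strand, was in 7 of these 81 windows (8.64%, against 3.47% of 32851 windows of all genes) and in 7 of the 43 genes (16.3% against 3.93%), namely *Akap8*, *Atf2*, *Creb1*, *Prkaca*, *Prkar1a*, *Prkar1b* and *Sik2*. The full CRE, TGACGTCA, was in 2 of 81 windows (2.47% against 1.79%), both of *Prkar1a*. These 2 windows overlap and hold the same site, and by gene the share was 1 of 43 (2.33% against 2.03%). The core TGACG, which lies within the full CRE, was in 18 of 81 windows (22.2% against 20.8%) and in 16 of the 43 genes (37.2% against 23.0%). The members have more windows per gene than the table as a whole, so the shares of genes are not like for like, and base composition was not matched. Of the 7 genes with an EGR motif, *Prkaca* and *Sik2* were among the 9 whose genotypes did not overlap. The windows of *Adcy4*, *Akap1*, *Pde4a*, *Pde4d* and *Prkar2b* held neither the EGR motif nor the full CRE, and *Akap12* had no window in the table. A matching sequence is not evidence of binding.

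The windows of *Prkaca* and *Sik2* are shown because the genotypes did not overlap for these genes, that of *Creb1* because it holds the EGR motif and encodes the factor that PKA phosphorylates, and that of *Prkar1a* because it holds the CRE. Capitals mark the EGR motif in the first 3 sequences, where that of *Sik2* lies on the strand opposite to the gene, and the CRE in the fourth. The first base of the motif lies at -13, -27, -68 and -49 from the annotated start, in this order.
Prkaca, chr8:83972728-83973027, plus strand: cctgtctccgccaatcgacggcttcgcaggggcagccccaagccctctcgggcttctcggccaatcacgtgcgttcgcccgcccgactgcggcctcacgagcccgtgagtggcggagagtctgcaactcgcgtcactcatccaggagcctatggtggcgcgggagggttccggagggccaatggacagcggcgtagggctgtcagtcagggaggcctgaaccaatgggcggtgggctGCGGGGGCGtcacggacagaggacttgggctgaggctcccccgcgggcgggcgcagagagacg
Sik2, chr9:51009024-51009323, minus strand: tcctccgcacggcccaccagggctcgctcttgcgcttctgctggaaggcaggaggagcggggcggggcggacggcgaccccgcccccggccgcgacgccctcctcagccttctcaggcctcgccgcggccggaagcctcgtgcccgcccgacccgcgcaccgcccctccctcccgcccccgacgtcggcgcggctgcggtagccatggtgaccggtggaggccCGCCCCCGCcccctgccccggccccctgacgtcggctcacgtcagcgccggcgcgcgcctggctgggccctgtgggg
Creb1, chr1:64532554-64532853, plus strand: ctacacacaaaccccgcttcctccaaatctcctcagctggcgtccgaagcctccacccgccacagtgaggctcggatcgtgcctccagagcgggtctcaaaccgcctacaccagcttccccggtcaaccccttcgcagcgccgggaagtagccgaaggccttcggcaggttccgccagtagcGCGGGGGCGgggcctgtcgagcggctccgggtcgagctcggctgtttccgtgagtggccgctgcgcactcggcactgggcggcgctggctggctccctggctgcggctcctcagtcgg
Prkar1a, chr11:109650699-109650998, plus strand: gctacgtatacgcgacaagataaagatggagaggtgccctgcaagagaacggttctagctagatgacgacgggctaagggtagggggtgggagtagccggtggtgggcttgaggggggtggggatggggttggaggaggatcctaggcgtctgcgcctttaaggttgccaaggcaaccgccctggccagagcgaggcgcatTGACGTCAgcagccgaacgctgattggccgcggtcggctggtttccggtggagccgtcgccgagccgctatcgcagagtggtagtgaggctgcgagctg

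Each role was dominated by 1 or a few genes per unit length. *Adcy6* supplied 39.3% of the summed level of the 10 cyclases, *Pde3b* 53.5% of that of the phosphodiesterases, *Prkaca* 78.8% of the catalytic and *Prkar2b* 87.1% of the regulatory PKA subunits, and *Sik2* 69.9% of the salt-inducible kinases. *Akap1* (25.3%) and *Akap12* (24.2%) held similar shares of the AKAPs, and *Atf2* (44.5%) and *Creb1* (42.5%) of the transcription factors. The gene of highest level in each of the 7 roles was the same when the longest transcript was used as the length.

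**Figure D2:**
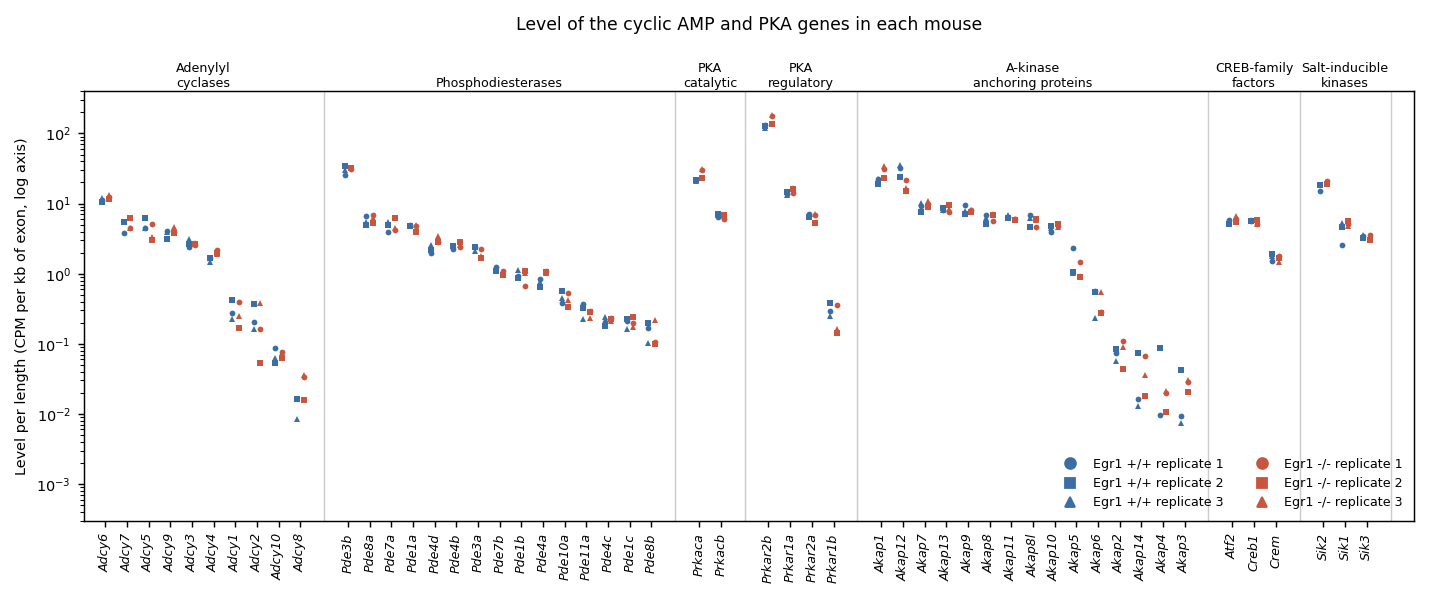
Level of the 52 members in CPM per kilobase of exon on a log axis, 1 point per mouse, by role and genotype. *Prkar2b* stands above all other members, while *Adcy8*, *Akap3*, *Akap4* and *Akap14* lie at the bottom, and values of 0 (*Adcy8* in *Egr1* +/+ replicate 1, *Akap4* in *Egr1* +/+ replicate 3) are not drawn.

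Adenylyl cyclases convert ATP to cAMP. The most abundant, *Adcy6*, encodes a cyclase inhibited by calcium and by the inhibitory G proteins, and had 76.9, 71.9 and 80.7 CPM in *Egr1* +/+ mice and 85.0, 79.0 and 90.7 CPM in *Egr1* -/- mice. The ranges overlapped, and the log2 fold change was 0.15 (SE 0.111, adjusted p = 0.702). *Adcy4* on chromosome 14 (55769057 to 55784095, minus strand), a calcium-insensitive cyclase, had 7.92, 7.72 and 6.98 CPM in the *Egr1* +/+ mice and 10.2, 9.17 and 9.05 CPM in the *Egr1* -/- mice. Its means were 7.54 ± 0.493 and 9.48 ± 0.635 CPM (SD, n = 3 mice per genotype), and every *Egr1* -/- mouse was above every *Egr1* +/+ mouse. The log2 fold change was 0.33 (SE 0.137, edgeR adjusted p = 0.44), at a level that made up 6.01% of all cyclase per unit length. *Adcy5*, a close relative of *Adcy6*, was on the opposite side, with 32.0, 44.6 and 31.8 CPM against 36.6, 21.9 and 23.6 CPM and a log2 fold change of -0.40 (SE 0.214, adjusted p = 0.57). Its *Egr1* -/- replicate 1 lay within the *Egr1* +/+ range. *Adcy7*, *Adcy9* and *Adcy3* had log2 fold changes of 0.04, 0.17 and -0.03. *Adcy1*, *Adcy2* and *Adcy10* were each below 0.5 CPM per kilobase in both genotypes. *Adcy8*, with 0 to 4 counts in *Egr1* +/+ mice and 4 to 9 in *Egr1* -/- mice, was too low to be tested. The summed cyclase level was 29.8 ± 1.41 against 30.8 ± 0.982 CPM per kilobase, a difference smaller than the spread between mice.

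Phosphodiesterases hydrolyse cyclic nucleotides. *Pde3b*, the enzyme through which insulin restrains lipolysis in fat cells, had 235, 311 and 271 CPM in the *Egr1* +/+ mice and 287, 293 and 298 CPM in the *Egr1* -/- mice. The *Egr1* -/- values fell inside the *Egr1* +/+ range (log2 fold change 0.10, SE 0.135, adjusted p = 0.84). The PDE4 enzymes, which are specific for cAMP, were not alike. *Pde4d* on chromosome 13 (108449948 to 109953461, plus strand) had 23.9, 26.0 and 30.9 CPM against 33.9, 34.1 and 41.4 CPM, so every *Egr1* -/- mouse was above every *Egr1* +/+ mouse. The difference was 0.44 on the log2 scale (SE 0.137, edgeR adjusted p = 0.303). *Pde4a* on chromosome 9 (21165714 to 21213248, plus strand) had 6.35, 4.93 and 5.82 CPM against 8.40, 8.13 and 7.69 CPM, again without overlap. With a log2 fold change of 0.50 (SE 0.156, edgeR adjusted p = 0.3) this was the largest positive value among the 48 genes. *Pde4b* had a log2 fold change of 0.10 (SE 0.112) and *Pde4c* one of 0.09 (SE 0.281). Whether the PDE4 genes differ from each other in their response was not tested.

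*Pde3a*, which is closely related to *Pde3b*, had 30.2, 30.4 and 26.6 CPM in the *Egr1* +/+ mice and 28.2, 21.5 and 22.4 CPM in the *Egr1* -/- mice. Its log2 fold change was -0.27 (SE 0.135, adjusted p = 0.522), with *Egr1* -/- replicate 1 inside the *Egr1* +/+ range. The other 9 phosphodiesterases, *Pde1a*, *Pde1b*, *Pde1c*, *Pde7a*, *Pde7b*, *Pde8a*, *Pde8b*, *Pde10a* and *Pde11a*, had log2 fold changes between -0.17 and 0.12. The summed level of the phosphodiesterases was 56.3 ± 3.94 CPM per kilobase in *Egr1* +/+ mice and 59.5 ± 0.707 in *Egr1* -/- mice, within the spread between the *Egr1* +/+ mice.

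PKA is a tetramer of 2 regulatory and 2 catalytic subunits. *Prkaca*, the main catalytic subunit (chromosome 8, 83972993 to 83996443, plus strand), had 53.4, 53.6 and 52.6 CPM in the *Egr1* +/+ mice and 75.6, 57.9 and 76.3 CPM in the *Egr1* -/- mice. The *Egr1* +/+ mice lay within a narrow band below all 3 *Egr1* -/- mice, of which replicate 2 was nearest. The means were 53.2 ± 0.494 and 69.9 ± 10.4 CPM, a 1.31-fold difference (log2 fold change 0.39, SE 0.13, edgeR adjusted p = 0.323). *Prkar2b* (chromosome 12, 31958476 to 32061296, minus strand), the regulatory subunit RIIβ typical of adipose tissue, had 489, 468 and 435 CPM against 642, 499 and 668 CPM. Again *Egr1* -/- replicate 2 was closest to the *Egr1* +/+ mice and no values overlapped. The means were 464 ± 27.3 and 603 ± 90.6 CPM, a 1.3-fold difference (log2 fold change 0.38, SE 0.148, edgeR adjusted p = 0.407).

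The other subunits did not separate the genotypes. *Prkacb*, the second catalytic subunit, had a log2 fold change of -0.05 (SE 0.108, adjusted p = 0.915). *Prkar1a*, the RIα subunit found in most tissues, had one of 0.17 (SE 0.113, adjusted p = 0.66) and *Prkar2a* one of -0.09 (SE 0.137, adjusted p = 0.87). *Prkar1b*, at 0.549 to 1.43 CPM in the 6 mice, had one of -0.44 with an SE of 0.42. The summed level of the catalytic subunits was 27.9, 28.5 and 28.0 CPM per kilobase in *Egr1* +/+ mice against 36.4, 30.2 and 37.4 in *Egr1* -/- mice. That of the regulatory subunits was 155, 150 and 139 against 197, 158 and 207 CPM per kilobase. Both sums were higher in every *Egr1* -/- mouse, and *Prkaca* and *Prkar2b* made up most of them.

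Ratios between genes of a mouse do not depend on the scaling of the library, and those given here were chosen after the values had been seen and carry no test. The ratio of *Prkar2b* to *Prkaca* per unit length was 5.94 ± 0.306 in *Egr1* +/+ mice and 5.87 ± 0.0871 in *Egr1* -/- mice, so the 2 leading subunits kept nearly the same proportion in both genotypes. The ratio of *Prkaca* to *Prkacb* was 3.33, 3.07 and 3.10 in *Egr1* +/+ mice against 5.02, 3.38 and 4.57 in *Egr1* -/- mice, without overlap. *Prkacb* accordingly held 24.0% ± 0.842 of the catalytic subunit level in *Egr1* +/+ mice and 19.1% ± 3.28 in *Egr1* -/- mice. The ratio of *Prkar2b* to *Prkar1a* overlapped, with 8.70 to 9.70 against 8.55 to 12.4.

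AKAPs tether the regulatory subunits. *Akap12*, also called gravin (chromosome 10, 4266380 to 4359470, plus strand), a scaffold that holds PKA near the plasma membrane and beta adrenergic receptors, had 211, 156 and 231 CPM in the *Egr1* +/+ mice and 141, 96.2 and 108 CPM in the *Egr1* -/- mice. Every *Egr1* -/- mouse was below every *Egr1* +/+ mouse, although *Egr1* -/- replicate 1 and *Egr1* +/+ replicate 2 were near each other. The means were 199 ± 39.0 and 115 ± 22.9 CPM, and the log2 fold change of -0.79 (SE 0.189) was the largest in size among the 48 genes. The adjusted p was 0.216 in edgeR and 0.00261 in DESeq2. The fold change lay between -0.96 and -0.68 with any 1 mouse left out.

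*Akap1* (chromosome 11, 88830792 to 88864586, minus strand), whose protein anchors PKA at the outer mitochondrial membrane, had 97.9, 84.5 and 98.7 CPM in the *Egr1* +/+ mice and 135, 103 and 151 CPM in the *Egr1* -/- mice. All 3 *Egr1* -/- values were above the highest *Egr1* +/+ value, and the means were 93.7 ± 8.0 and 130 ± 24.3 CPM. The log2 fold change was 0.47 (SE 0.156, edgeR adjusted p = 0.325). *Akap1* and *Akap12* exchanged rank. *Akap12* held 30.1%, 27.0% and 32.6% of the summed AKAP level per unit length in *Egr1* +/+ mice against 21.5%, 16.6% and 16.2% in *Egr1* -/- mice. For *Akap1* these shares were 20.5%, 21.5% and 20.5% against 30.4%, 26.2% and 33.1%. The ratio of *Akap12* to *Akap1* was 1.47, 1.25 and 1.59 in *Egr1* +/+ mice against 0.707, 0.635 and 0.490 in *Egr1* -/- mice, so it was above 1 in each *Egr1* +/+ mouse and below 1 in each *Egr1* -/- mouse. This ratio too was chosen after the values had been seen. It could not overlap, since *Akap12* was lower and *Akap1* higher in every *Egr1* -/- mouse. The summed level of the AKAPs differed by less than the spread between mice, with 103 ± 11.5 against 98.3 ± 7.46 CPM per kilobase.

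*Akap11*, an anchor that binds glycogen synthase kinase 3 as well as PKA, had 70.1, 69.3 and 75.8 CPM against 66.4, 64.5 and 67.1 CPM. The values did not overlap, yet the difference was small (log2 fold change -0.12, SE 0.103, adjusted p = 0.741). *Akap7*, *Akap13*, *Akap9*, *Akap8*, *Akap8l* and *Akap10* had log2 fold changes between -0.09 and 0.14. *Akap5* (-0.42, SE 0.328) and *Akap6* (-0.30, SE 0.369) varied widely within the genotypes. *Akap6*, an anchor of striated muscle, had 8.50, 8.22 and 3.50 CPM in the *Egr1* +/+ mice and 4.17, 4.13 and 8.02 CPM in the *Egr1* -/- mice. Its lowest *Egr1* +/+ mouse and its highest *Egr1* -/- mouse were also the lowest of the *Egr1* +/+ and the highest of the *Egr1* -/- mice in muscle markers, and with the muscle markers as a covariate its log2 fold change was -0.09. *Akap2* shares 84.4% of its exon bases with *Pakap* on the same strand, so its 11 to 30 counts per mouse are uncertain. *Akap3*, *Akap4* and *Akap14*, with at most 8 counts in any mouse, were not tested.

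**Figure D3:**
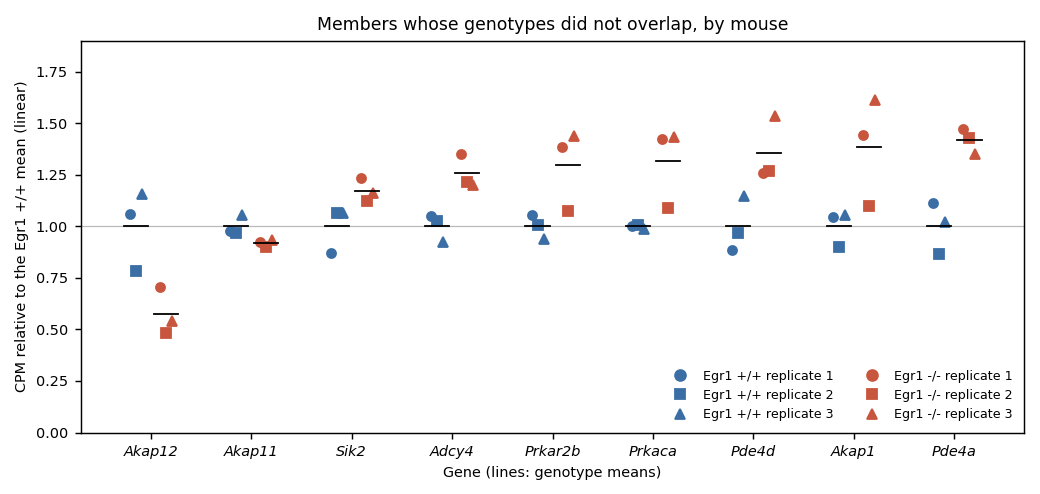
Level of the 9 members whose genotypes did not overlap, as CPM relative to the mean of the *Egr1* +/+ mice, 1 point per mouse with a line at the mean of each genotype. *Akap12* and *Akap11* are lower in every *Egr1* -/- mouse and the other 7 genes are higher, with *Egr1* -/- replicate 2 the lowest of the *Egr1* -/- mice for *Akap1*, *Prkaca*, *Prkar2b* and *Sik2*.

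The nuclear end of the pathway showed small differences. *Creb1*, the founding CRE-binding factor, had 77.4, 77.5 and 79.2 CPM in the *Egr1* +/+ mice and 71.3, 80.1 and 70.2 CPM in the *Egr1* -/- mice (log2 fold change -0.08, SE 0.107, adjusted p = 0.844). *Crem*, which encodes both activators and the inducible repressor ICER, had 8.91, 11.4 and 10.4 CPM against 10.5, 9.78 and 8.53 CPM (log2 fold change -0.09, SE 0.15, adjusted p = 0.867). The ranges of both overlapped. *Atf2*, a target of stress kinases in fat cells, had 47.4, 42.2 and 45.2 CPM against 49.3, 45.2 and 54.7 CPM (log2 fold change 0.15, SE 0.115, adjusted p = 0.719), also with overlap. Summed over the 3 factors, the level was 12.9 ± 0.161 against 13.1 ± 0.139 CPM per kilobase.

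*Sik2* (chromosome 9, 50892801 to 51009073, minus strand), the salt-inducible kinase most abundant in these fat pads, had 142, 174 and 174 CPM in the *Egr1* +/+ mice and 202, 183 and 190 CPM in the *Egr1* -/- mice. All *Egr1* -/- values were above all *Egr1* +/+ values, the means being 163 ± 18.1 and 192 ± 9.53 CPM, but the log2 fold change of 0.23 (SE 0.126) had an unadjusted p of 0.101 (adjusted p = 0.577). In 15.0% of its exon bases *Sik2* overlaps *Ppp2r1b* on the other strand, and the strand setting of the counting is not given in the sources used here. *Sik1*, whose transcription CREB induces, had a log2 fold change of 0.30 (SE 0.228, adjusted p = 0.706), and *Sik3* one of -0.05 (SE 0.111, adjusted p = 0.905).

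A further 32 genes upstream and downstream in the pathway were chosen by their textbook role. Of these, 31 were tested, and *Popdc3*, with 0 to 25 counts, was not. None passed the adjusted threshold in edgeR. At an unadjusted p under 0.05 there were 6 with a higher level (19.4%, background 5.06%) and 2 with a lower level (6.45%, background 5.6%) in *Egr1* -/- mice. DESeq2 called 3 of 28 (10.7%, background 2.89%), *Ppargc1a* and *Gnas* with a higher level and *Gnai1* with a lower one. Their median log2 fold change was 0.17, against 0.0 for all tested genes, and 23 of 31 (74.2%, background 50.1%) were on the higher side. The list was made with earlier results of these data known. It includes *Ppargc1a*, which the study had reported as upregulated from the same mice, so these shares are not independent of the data.

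At the receptor end, *Gnas*, the stimulatory alpha subunit, had 405, 326 and 341 CPM in the *Egr1* +/+ mice and 553, 418 and 566 CPM in the *Egr1* -/- mice. The genotypes did not overlap (log2 fold change 0.52, SE 0.16, adjusted p = 0.295 in edgeR and 0.0393 in DESeq2), although *Gnas* shares 13.1% and 8.8% of its exon bases with *Gm20721* and *Nespas* on the other strand. The inhibitory subunit *Gnai1* lay on the opposite side, with 85.9, 88.4 and 102 CPM against 72.5, 53.2 and 65.2 CPM (log2 fold change -0.53, SE 0.142, adjusted p = 0.238 in edgeR and 0.0272 in DESeq2). *Gnai2* had 101, 78.4 and 91.2 CPM against 79.7, 72.0 and 68.9 CPM, a log2 fold change of -0.30 (SE 0.129, adjusted p = 0.462) with overlap. *Gnai3* had a log2 fold change of -0.17 (SE 0.106, adjusted p = 0.635) without overlap. All 3 inhibitory subunits were thus on the lower side and *Gnas* on the higher side. Per unit length, the ratio of *Gnas* to *Gnai1*, also chosen after the values had been seen, was 1.32, 1.03 and 0.940 in *Egr1* +/+ mice against 2.14, 2.2 and 2.43 in *Egr1* -/- mice. It could not overlap, since *Gnas* was higher and *Gnai1* lower in every *Egr1* -/- mouse. The receptor genes *Adrb1* and *Adrb3* had log2 fold changes of 0.59 (SE 0.381) and 0.28 (SE 0.225), each with overlap.

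Downstream of PKA, *Ppargc1a*, a CREB target and coactivator of mitochondrial and thermogenic genes, had 32.1, 19.9 and 36.4 CPM against 58.7, 48.4 and 79.7 CPM. Its log2 fold change of 1.08 (SE 0.244, adjusted p = 0.193 in edgeR and 9.24e-04 in DESeq2) was larger than that of any of the 48 members, and it is itself 1 of the 6 beige markers. *Lipe*, which encodes hormone-sensitive lipase, had 195, 211 and 214 CPM against 281, 226 and 287 CPM (log2 fold change 0.36, SE 0.133, adjusted p = 0.378). The lipid droplet substrate *Plin1* overlapped between genotypes (log2 fold change 0.11, SE 0.178). Among the coactivators that bind CREB, *Crtc2* had 7.33, 8.29 and 8.56 CPM against 9.73, 12 and 9.99 CPM (log2 fold change 0.39, SE 0.146, adjusted p = 0.378). The acetyltransferase *Ep300* had 80.4, 67.1 and 75 CPM against 84.1, 95.3 and 91.1 CPM (log2 fold change 0.28, SE 0.117, adjusted p = 0.441). The CREB-responsive receptor *Nr4a1* had 3.58, 5.63 and 5.27 CPM against 5.79, 7.81 and 6.72 CPM (log2 fold change 0.49, SE 0.212, adjusted p = 0.458). These 3 genes were higher in every *Egr1* -/- mouse, as were *Crtc3* (0.25, SE 0.132) and *Nr4a2* (0.33, SE 0.174). Their relatives *Crebbp* (0.16, SE 0.127) and *Crtc1* (0.13, SE 0.188) overlapped between the genotypes. The other CREB-responsive transcripts *Nr4a3*, *Per1*, *Dusp1* and *Fosb* overlapped, with log2 fold changes from -0.25 to 0.45, and the PKA inhibitors *Pkia*, *Pkib* and *Pkig* from -0.51 to 0.17.

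In the *Egr1* -/- mice some of these genes were lowest or highest in the same mouse as a marker sum. The summed beige markers were 1300, 919 and 1540 CPM in the *Egr1* -/- mice, lowest in replicate 2, in which *Prkaca*, *Prkar2b*, *Akap1*, *Gnas* and *Lipe* were also lowest among the *Egr1* -/- mice. The summed stromal markers were 1110, 792 and 842 CPM in the *Egr1* -/- mice, highest in replicate 1, in which *Akap12*, *Adcy5*, *Pde3a* and *Gnai1* were also highest. These genes were picked after their values were seen. The ranks are not particular to the beige and stromal lists. Replicate 2 was also lowest in the white adipocyte, endothelial, mural, macrophage, nerve and erythroid sums. It was highest in the lymphocyte sum, with 609 CPM against 292 and 387 CPM. Replicate 1 was also highest in the white adipocyte, endothelial, mural, macrophage, mammary epithelial and erythroid sums. By contrast, *Pde4d* was lowest in *Egr1* -/- replicate 1, and *Pde4a* and *Adcy4* in *Egr1* -/- replicate 3. In the *Egr1* +/+ mice *Prkaca* and *Prkar2b* were lowest in the same mouse as the beige sum, replicate 3. *Adcy5* and *Pde3a* were highest in the same mouse as the stromal sum, replicate 2. The margin was small for *Prkaca* (53.4, 53.6 and 52.6 CPM) and *Pde3a* (30.2, 30.4 and 26.6 CPM). Among these genes the full order of the 3 mice matched only for *Prkar2b*. The match of the extreme mouse did not hold there for *Akap12*, which was lowest in replicate 2, where the stromal sum was highest. Nor did it hold for *Akap1*, which was highest in replicate 3, where the beige sum was lowest. *Lipe* was lowest in replicate 1, where the beige sum was highest. *Gnas* was lowest in replicate 2 rather than 3, and *Gnai1* highest in replicate 3 rather than 2. With 3 mice per genotype the part of cell composition in these differences was not tested. Macrophage markers were 192 to 264 CPM in *Egr1* +/+ mice and 133 to 180 CPM in *Egr1* -/- mice, with 3 of 5 lower at an unadjusted p under 0.05. Endothelial, mural, lymphocyte and mammary epithelial markers overlapped between the genotypes in their summed level. Single markers did not all follow the sums. All 5 lymphocyte markers were on the higher side (median log2 fold change 0.51), though *Ptprc* supplied most of their sum. *Cd79a* had a log2 fold change of 0.93 (edgeR unadjusted p = 0.0148). In the mural list *Cspg4* was higher (0.65, edgeR unadjusted p = 0.00344) and the others were on the lower side. *Tek* of the endothelial list was lower (-0.44, edgeR unadjusted p = 0.0219). Nerve and Schwann cell markers were 142 to 238 against 103 to 134 CPM, and erythroid markers 175 to 264 against 85.7 to 165 CPM. The nerve marker *Th*, which encodes the rate-limiting enzyme of noradrenaline synthesis, had no count in any mouse. Nerve supply and noradrenaline were not measured, so this count does not show that either was absent. Skeletal muscle had the widest range over the 6 mice of the 11 lists, and with it as a covariate 6 of the 7 genes kept an unadjusted p under 0.05, the exception being *Adcy4*. In that fit the log2 fold change of *Akap12* was -0.85 (edgeR adjusted p = 0.131).

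**Figure D4:**
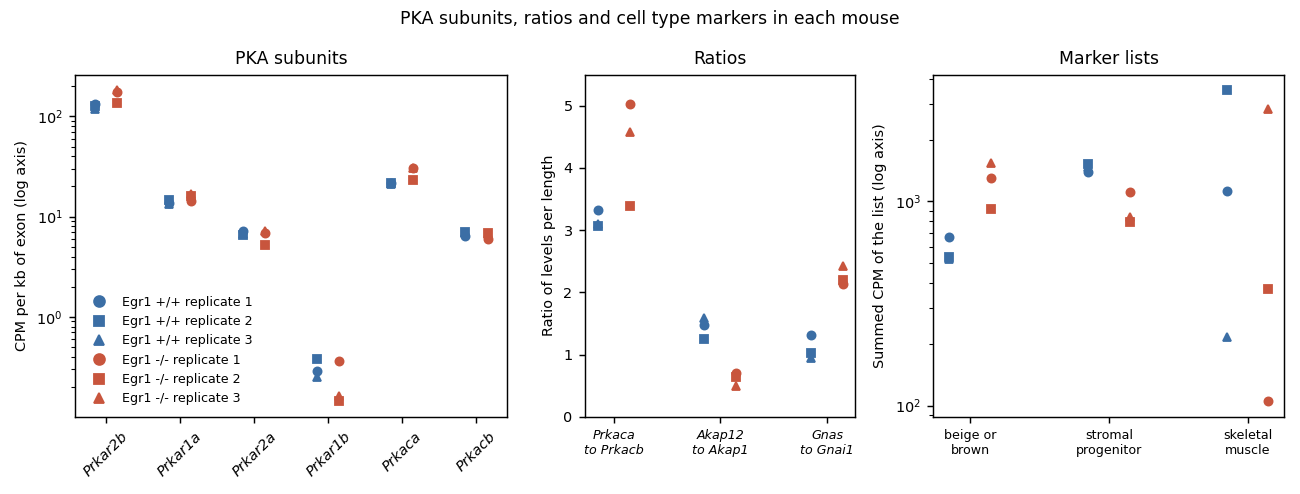
Left, level of the PKA subunits in CPM per kilobase of exon on a log axis, 1 point per mouse. Centre, ratios per unit length of *Prkaca* to *Prkacb*, *Akap12* to *Akap1* and *Gnas* to *Gnai1* on a linear axis from 0, none of which overlap between genotypes, and right, summed CPM of the beige, stromal and skeletal muscle markers on a log axis, where the muscle list overlaps between genotypes and the other two do not. For *Akap12* to *Akap1* and *Gnas* to *Gnai1* the lack of overlap follows from the opposite separation of their genes.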

How the data were processed

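RNA of inguinal SC-WAT from 3 *Egr1* +/+ and 3 *Egr1* -/- mice was depleted of ribosomal RNA, prepared with a kit that marks strand and sequenced, 1 library per mouse. The authors mapped reads to GRCm38 with TopHat and Bowtie and counted them on GENCODE M8 genes with featureCounts. The deposited values are raw counts. Settings for strand and multimapping are not given in the sources used here.

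Genes were named by Ensembl identifier without version through GENCODE M21 of GRCm38, which matched 46574 of 47069 genes. Its union exon length gave levels per kilobase, and all gene coordinates come from it. *Pde2a* was not analysed here, since its identifier in M21 was not among those counted.

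Counts of all genes were fitted in R 4.3.3 with edgeR 4.0.16 (TMM, filterByExpr, quasi-likelihood test without covariate, two-sided), and p-values were adjusted by Benjamini-Hochberg over 17667 genes. The SE was obtained as the absolute log2 fold change divided by the root of F. The muscle covariate was the level of the 10 skeletal muscle markers. DESeq2 1.42.0, limma 3.58.1 with voom, other normalizations and filters, a replicate block and the omission of each mouse were alternatives. The scripts were tested on simulated data. With 3 mice against 3, an exact permutation test cannot give a p below 0.1, so no such test is given.

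Genes described with values per mouse are the members with an unadjusted p under 0.05, those without overlap between genotypes, the most abundant member of each role, *Pde3b*, *Prkar2b*, *Creb1* and *Crem*, and, of the other pathway genes, those with an unadjusted p under 0.05. *Adcy5*, *Pde3a* and *Akap6* and the ratios were added after their values were seen. The members and lists were chosen with earlier results of these data known. The values of 1 of the other pathway genes are not reported here.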

Additional observations from a re-analysis of the deposited data

How the results depend on the processing

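Of 14 members described in full, 11 kept their direction under all 16 alternatives. The exceptions under total counts were *Adcy6* (-0.0013), *Atf2* (-0.0013) and *Pde3b* (-0.04), and *Pde3b* ranged from -0.01 (without *Egr1* +/+ replicate 1) to 0.21 with a mouse left out. No member was called except *Akap12*, which made 1 call with DESeq2 (adjusted p = 0.00261) and 1 without a filter on low counts (adjusted p = 2.26e-04). Its adjusted p in the other alternatives ran from 0.0638 to 0.72. The cause of these differences was not tested. The other pathway genes had 3 calls with DESeq2 and 1 without the filter. Calls over all genes ranged from 0 to 552, against 3 in the main comparison.

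Under total counts 3 members had an unadjusted p under 0.05 and 5 had no overlap, and the median of the members was -0.104. Leaving out each mouse gave 2 to 8 members at that p, the 2 being *Akap12* and *Pde4a* without *Egr1* -/- replicate 3, and 11 to 16 members without overlap, as groups of 2 separate more easily.

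Replicate numbers are not stated to mark litters. Deviations of same-numbered mice correlated at -0.089, 0.106 and -0.126, against -0.171 to 0.233 for mice of different number. These values gave no sign of pairing by number. With 3 mice per genotype they cannot exclude that the 2 littermates share a number. With the replicate number as a block, edgeR called 0 members and 0 genes in all (3 without the block), and 6 members, without *Adcy4*, had an unadjusted p under 0.05. The 4 members with the fewest counts, at most 9 in any mouse, were too low to be tested at this depth.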
